A study of Mus musculus with 32 samples.

Results

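The transcripts of 5 genes whose proteins phosphorylate or ubiquitinate the PER and CRY clock proteins were measured in mouse photoreceptors: the casein kinase 1 genes Csnk1d and Csnk1e, and the F-box genes Fbxl21, Btrc and Fbxw11. They were taken by name for their known role and not by a cut on their values, though earlier results of these data were known. They are 5 of the 54232 genes in the count table. Photoreceptors, the rods and cones of the retina, had been cut by laser capture from snap-frozen eyes of 6-week-old male mice on a C57BL/6/J x 129 SvEvBrd background. The 2 genotypes were Per1-/-Per2Brdm1 (KO), which carries a null Per1 allele and the Brdm1 allele of Per2, known as a deletion within the PAS domain, and wild type (WT). Each was sampled at circadian time (CT) 19, 22, 1 and 10, in hours after the start of the subjective day, with 4 libraries in each of the 8 groups and 32 in all. The title of WT CT1 replicate 5 carries 2 animal numbers, and it was used as 1 library. In the title of WT CT10 replicate 5 an R stands where the other titles have an L.

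In the mammalian clock, CLOCK and BMAL1 drive the Per and Cry genes, and the PER and CRY proteins then repress that drive until they are destroyed. Casein kinase 1 delta and epsilon bind PER and phosphorylate it, which sets how fast it enters the nucleus and how fast it is degraded. The F-box proteins beta-TrCP1 (Btrc) and beta-TrCP2 (Fbxw11) read phosphorylated PER and pass it to an SCF ubiquitin ligase, and FBXL21 is an F-box protein that acts on CRY. In the retina this clock runs within the tissue itself and is tied to daily changes in photoreceptor physiology.

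Library totals were 23833604 to 34582742 counts. All 5 genes passed the filter on low counts, but at very different depths: Csnk1d had 2940 to 4477 counts per library, Btrc 2332 to 5085, Fbxw11 1789 to 3025, Csnk1e 1356 to 2145 and Fbxl21 only 17 to 74. The 9 rod markers were measured in all groups, at a mean of 12.2 to 12.4 log2 CPM (counts relative to library size). Markers of other eye cells were present too: no gene of the 11 marker lists was at 0 in all libraries, and the lens list ranged between 3.91 log2 CPM in WT at CT19 and 7.69 in WT at CT1 as group means. In bulk tissue, fewer cells of a type and less RNA per cell cannot be told apart. Per1 averaged 208 ± 41.0 CPM in KO and 118 ± 18.7 CPM in WT libraries, and Per2 198 ± 24.5 CPM in KO and 30.7 ± 8.30 CPM in WT libraries (SD, n = 16 each). Counts summed over a whole gene do not separate deleted from remaining exons, so they do not check the genotype labels.

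Set per kilobase of annotated exon, Csnk1d was the most abundant of the 5 transcripts, at 24.6 ± 1.61 CPM per kilobase (SD, n = 32). Fbxw11 stood at 18.02 ± 1.10, Csnk1e at 8.72 ± 0.848, Btrc at 7.66 ± 1.72 and Fbxl21 at 0.327 ± 0.104 CPM per kilobase. The place of Btrc depended on which length was used, because its joined exons span 16908 bases while its longest annotated transcript has 4720. Per kilobase of the longest transcript Btrc stood at 27.5 CPM, above Fbxw11 at 19.4 and Csnk1e at 18.1 and below Csnk1d at 33.6. Fbxl21 was lowest by either length. All levels below are CPM scaled by TMM, a scaling that balances library composition, and are compared only within a gene.

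**Figure D1:**
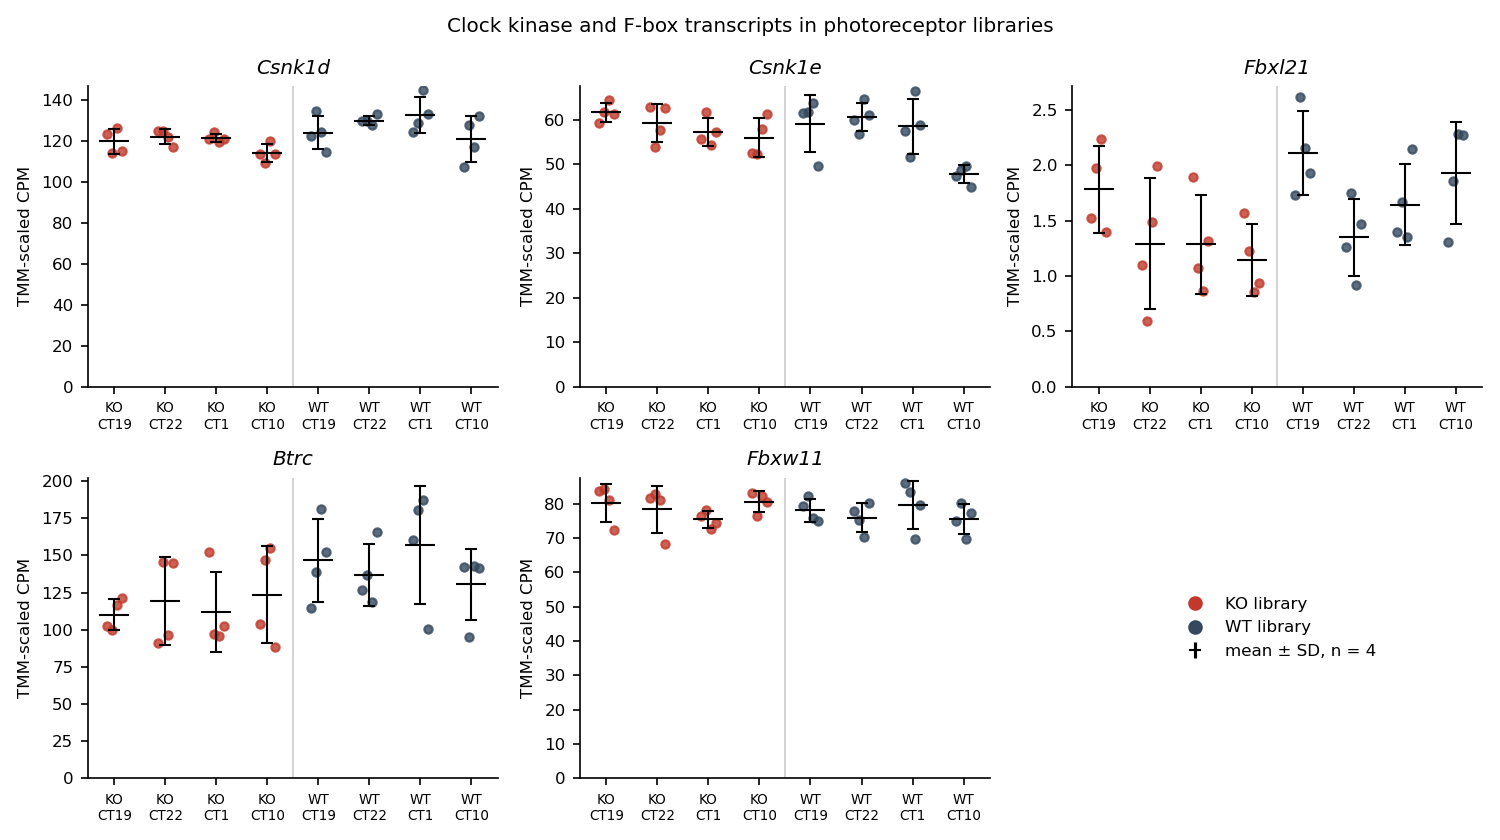
TMM-scaled CPM (y axis, linear, from 0) of each of the 5 genes in the 32 libraries, with KO groups left of WT groups and times in the order CT19, CT22, CT1, CT10 (x axis). Points are libraries and black marks are mean ± SD (n = 4). For Csnk1e the 4 WT libraries at CT10 sit between 44.9 and 49.6 CPM, below all others except 1 WT library at CT19, and Btrc libraries of 1 group spread widely.

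The 5 transcripts were quite unlike in how much they varied between libraries of 1 group. The SD of log2 CPM within groups was 0.08 for Csnk1d, 0.09 for Fbxw11 and 0.11 for Csnk1e, against a median of 0.26 over the 17871 tested genes. Only 1.02% of tested genes varied less than Csnk1d. Fbxl21 had an SD of 0.41, where counting error alone would give 0.21. Btrc had an SD of 0.31, where counting error would give only 0.02 at its depth.

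KO and WT were first compared over the mean of the 4 times with edgeR's quasi-likelihood test, and a gene was called at a Benjamini-Hochberg adjusted p under 0.05 over all tested genes. None of the 5 was called, where 16.3% of all tested genes were. There were 3 with an unadjusted p under 0.05 (Csnk1d, Fbxl21 and Btrc), all lower in KO, beside 29.1% of all tested genes. DESeq2 called 2, Btrc and Csnk1d, and 3329 genes in all. The median log2 difference of the 5 was -0.09, beside 0.00 over all tested genes. At single times none of the 5 was called either, beside 5.19% of tested genes at CT19 and 1.53% at CT22, 1.58% in the CT1 comparison and 10.2% at CT10. The unadjusted p was under 0.05 for 0 of the 5 in the CT19 and CT22 comparisons, 1 at CT1 and 2 at CT10. Over all tested genes those shares were 21.4%, 12.03%, 13.5% and 24.0% in the order of times. DESeq2 called 1 of the 5, at CT10, and 2237 genes in all there. The plot of differences with their intervals shows how narrow the bounds are for the kinases and Fbxw11 and how wide for Fbxl21.

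**Figure D2:**
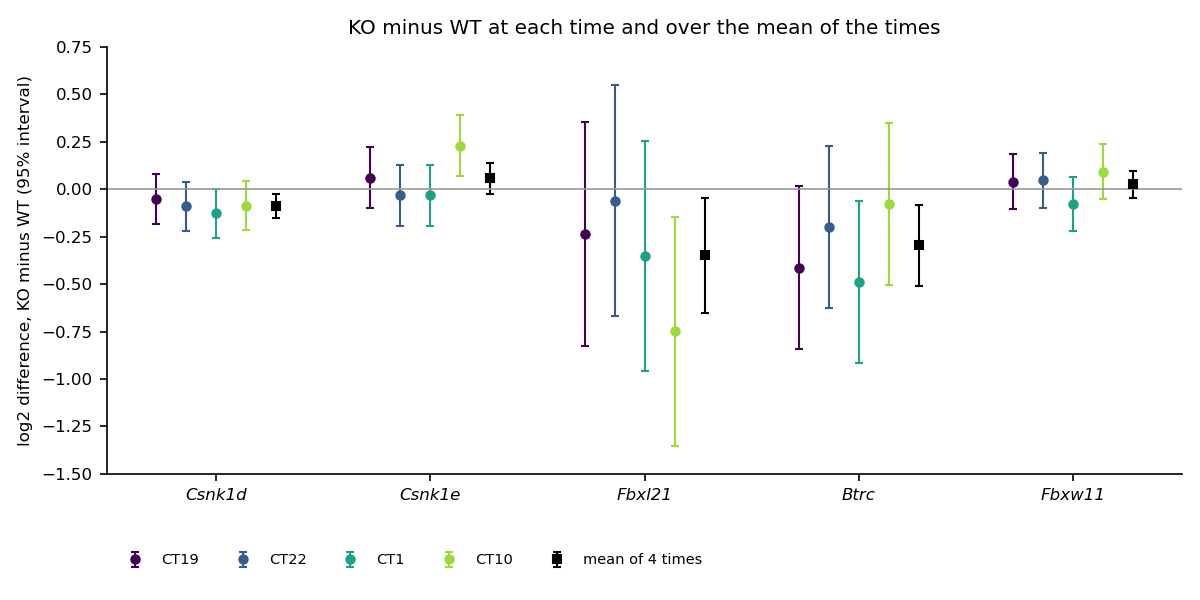
Log2 difference, KO minus WT (y axis), of each gene (x axis) at the 4 times (circles) and over their mean (black squares), with 95% intervals from the edgeR fit. The Csnk1e difference at CT10 lies at 0.23 and its interval does not reach 0, while the Fbxw11 intervals all include 0.

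Csnk1d (ENSMUSG00000025162, GRCm38 chr11:120961749-120991330, minus strand) encodes casein kinase 1 delta. In KO libraries it ranged between 109 and 127 CPM with a median of 121, against 108 to 145 CPM with a median of 128 in WT libraries. The ranges overlapped over all times, and Csnk1d was 0.09 log2 units lower in KO (95% interval -0.15 to -0.02, edgeR adjusted p = 0.0561), which was not called. The difference had the same sign at each time: it was -0.05 at CT19 and -0.09 at CT22, then -0.13 at CT1 and -0.09 for CT10. At CT22 KO libraries read 125, 125, 122 and 117 CPM and WT libraries 129.8, 129.9, 128 and 133 CPM, the only time at which no Csnk1d values overlapped. Such separation at CT22 held for 6.71% of all tested genes and for 1 of the 5 here. The interval over the mean of times allows a fold between 0.899 and 0.984. Csnk1d was called by DESeq2 (adjusted p = 0.0331), and by edgeR without WT CT1 replicate 1 (0.0381), WT CT10 replicate 1 (0.0209), WT CT19 replicate 4 (0.0320) or KO CT19 replicate 4 (0.0460). Over all alternatives its adjusted p ranged between 0.0209 and 0.557. No effect of time was called (edgeR adjusted p = 0.840 in KO and 0.360 in WT).

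Csnk1e (ENSMUSG00000022433, GRCm38 chr15:79417856-79455566, minus strand) encodes casein kinase 1 epsilon, the kinase altered in the hamster tau mutant with its short circadian period. It was the only one of the 5 for which a difference between times was called, and that in WT. The promoter window of this gene, which RefSeq places on GRCm38.p6 at chr15:79441769-79442068 on the minus strand as 1 of 4 windows, is shown because a timed transcript invites a look for clock motifs, with capitals from the annotated start on:
Csnk1e promoter: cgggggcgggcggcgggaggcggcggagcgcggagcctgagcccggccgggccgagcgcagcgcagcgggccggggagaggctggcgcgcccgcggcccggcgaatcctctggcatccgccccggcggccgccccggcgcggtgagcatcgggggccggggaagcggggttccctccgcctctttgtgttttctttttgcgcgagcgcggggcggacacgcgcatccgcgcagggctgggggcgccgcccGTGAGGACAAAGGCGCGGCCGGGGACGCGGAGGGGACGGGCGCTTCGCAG
The window is rich in CG, with 52 CG dinucleotides in its 300 bases.

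In KO, Csnk1e read 59.3, 61.6, 64.4 and 61.2 CPM at CT19, and 62.9, 53.9, 57.6 and 62.5 at CT22. It read 55.7, 61.7, 54.4 and 57.2 at CT1 and 52.4, 52.2, 57.9 and 61.2 at CT10. The KO means were 61.6, 59.2, 57.2 and 55.9 CPM in that order. No gene of the 5 was called for time in KO, beside 0.0056% of tested genes. At an unadjusted p under 0.05 there were 0 of the 5, beside 10.4% of tested genes, and DESeq2 called 0 of the 5 and 183 genes in all. KO at CT10 differed from the KO night by -0.11 (SE 0.07, edgeR adjusted p = 0.579), and no gene of the 5 was called there, beside 0% of tested genes (11.3% at an unadjusted p under 0.05, 0 of the 5, and 53 genes by DESeq2).

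WT libraries of Csnk1e read 61.4, 61.7, 63.7 and 49.5 CPM at CT19 and 59.9, 56.7, 64.6 and 61.0 CPM at CT22. They read 57.5, 51.5, 66.4 and 58.7 CPM at CT1 and 47.4, 48.7, 49.6 and 44.9 CPM at CT10. The CT10 libraries lay below all other WT libraries except CT19 replicate 4, which lay within their range. Csnk1e changed with time within WT, by 0.34 log2 units between the highest and lowest fitted means (edgeR F test, adjusted p = 0.00870). In WT, 1 of the 5 genes was called for time, beside 14.6% of all tested genes. Set against the mean of the night times CT19 and CT22, WT at CT10 was lower by a log2 difference of -0.33 (SE 0.07, 95% interval -0.47 to -0.18, edgeR adjusted p = 0.00108). That is a fold of 0.797, with 1 of 5 genes called beside 22.9% of tested genes.

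At CT10 itself KO libraries lay between 52.2 and 61.2 CPM and WT libraries between 44.9 and 49.6 CPM, so the groups did not overlap. The log2 difference was 0.23 (SE 0.08, 95% interval 0.07 to 0.39, edgeR adjusted p = 0.0617), short of the threshold, and DESeq2 called it (adjusted p = 0.0493), as did edgeR without WT CT1 replicate 4 (0.0474). Over all alternatives this adjusted p ranged between 0.0474 and 0.664. KO and WT libraries did not overlap at CT10 for 19.6% of tested genes and for 1 of the 5, Csnk1e. In the order of group means of Csnk1e, WT at CT10 was the lowest group, at 47.7 CPM, and KO at CT10 the next, at 55.9 CPM. At CT19 and CT1, where 10.1% and 6.75% of tested genes separated, 0 of the 5 did.

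The difference between the genotypes in timing was itself tested. The genotype by time interaction called 0 of the 5 genes, beside 1.62% of tested genes. At an unadjusted p under 0.05 there were 0 of the 5, beside 16.5% of tested genes. DESeq2 called 0 of the 5 and 897 genes in all, and Csnk1e had an adjusted p of 0.367 in edgeR. A contrast with 1 degree of freedom, added after the values were seen, set the CT10 against night difference of KO against that of WT. It gave 0.22 for Csnk1e (95% interval 0.02 to 0.41, edgeR quasi-likelihood adjusted p = 0.199) and called 0 of the 5 genes, beside 4.58% of tested genes. At an unadjusted p under 0.05 there was 1 of the 5, beside 20.7% of tested genes. DESeq2 called 0 of the 5 there and 1338 genes in all. The time effect of Csnk1e passed the test within WT and not within KO, and the difference between the genotypes did not pass.

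Other measures moved with Csnk1e at CT10. The inner retina level, the mean log2 CPM of bipolar, amacrine and Müller glia markers, was 4.06 ± 0.19 in KO and 3.05 ± 0.38 in WT at CT10. The lens level was 4.73 ± 1.42 in KO and 7.26 ± 0.93 in WT at CT10 (SD, n = 4 each). Counting called genes, KO exceeded WT at CT10 in 10 of 12 bipolar, 4 of 11 amacrine and 6 of 10 Müller glia markers, and fell below it in 1 of 10 lens markers. WT at CT10 stood below WT night in 10 of 12 bipolar, 9 of 11 amacrine and 7 of 10 Müller glia markers, and above it in 9 of 10 lens markers. Over the 32 libraries Csnk1e followed the inner retina level with a Pearson r of 0.43. By list r was 0.61 for amacrine, 0.31 for bipolar, 0.26 for Müller glia and -0.53 for lens markers. These values are a description over libraries that share their composition. The WT CT1 group had a lens level of 7.69 and a Csnk1e mean of 58.5 CPM. With the inner retina level as a covariate the CT10 against night difference in WT was -0.41 (edgeR adjusted p = 0.00446). With the inner retina and lens levels together it was -0.28 and no longer called (adjusted p = 0.133), and the test of time within WT had an adjusted p of 0.0710. That test also lost its call without WT CT10 replicate 5 (0.0530), the library with the R in its title. Over all alternatives the adjusted p ranged between 0.000114 and 0.133 for CT10 against night in WT and between 0.00132 and 0.0710 for time within WT. Within each of the 4 sets of consecutive library numbers, which hold 1 library per group, WT at CT10 lay below WT night, by log2 differences of -0.42, -0.30, -0.35 and -0.22, and KO lay above WT at CT10, by 0.22, 0.30, 0.14 and 0.25.

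The ratio of Csnk1d to Csnk1e counts within a library does not depend on library scaling. It was 1.03 ± 0.097 in KO and 1.18 ± 0.152 in WT on the log2 scale (SD, n = 16 each), a difference of -0.15. By a two-sided permutation test with 100000 resamples p was 0.00226, or 0.0226 adjusted over 10 ratio comparisons. Ratios of other gene pairs were not computed, so the share of pairs that would pass is not known. Among single tested genes, 29.1% had an unadjusted edgeR p under 0.05 between the genotypes over the mean of times. The KO mean lay below the WT mean at each time, with differences of -0.12 at CT19 and -0.06 at CT22, then -0.10 at CT1 and -0.31 in the CT10 libraries. At CT10 the ratio was 0.898 to 1.12 in KO libraries and 1.18 to 1.56 in WT libraries, with no overlap (exact permutation p = 0.0286, adjusted 0.0952), and this p is the smallest that 4 against 4 can give. At the other times the groups overlapped.

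**Figure D3:**
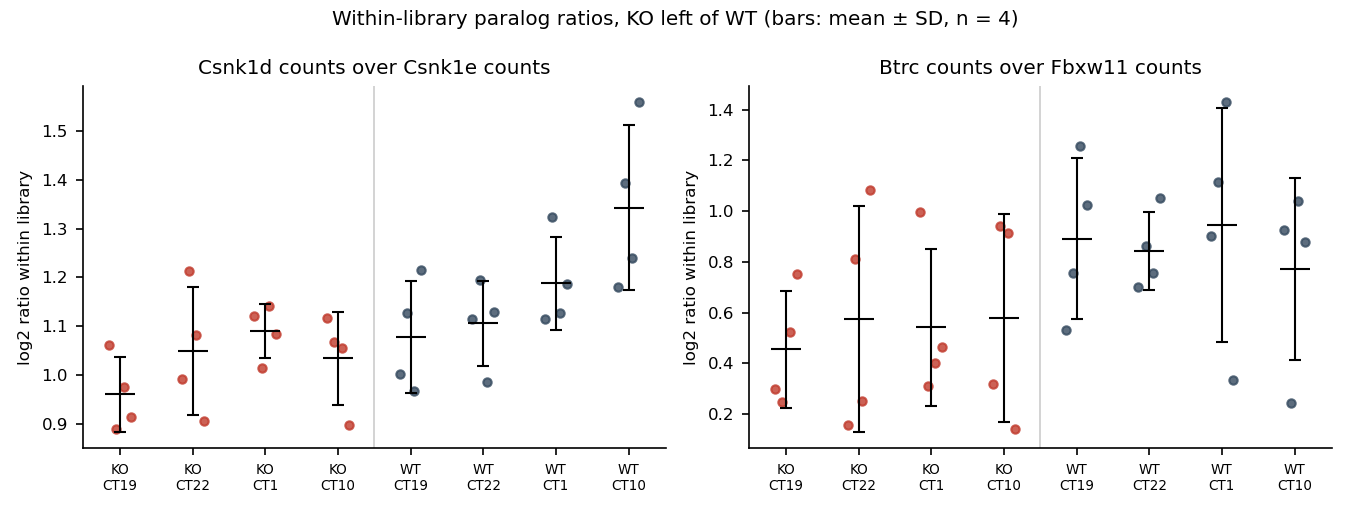
Log2 ratio of Csnk1d to Csnk1e counts (left panel) and of Btrc to Fbxw11 counts (right panel) within each library, with KO groups left of WT groups. Points are libraries and black marks are mean ± SD (n = 4). The WT libraries at CT10 have the highest mean Csnk1d to Csnk1e ratio, 1.34, and the Btrc to Fbxw11 ratio has a lower mean in KO at every time.

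Fbxl21 (ENSMUSG00000035509, GRCm38 chr13:56522472-56537898, plus strand) encodes an F-box protein that ubiquitinates CRY. Its RefSeq promoter window lies at chr13:56522222-56522521 on the plus strand of GRCm38.p6 and is printed for comparison with that of Csnk1e, again with capitals from the annotated start on:
Fbxl21 promoter: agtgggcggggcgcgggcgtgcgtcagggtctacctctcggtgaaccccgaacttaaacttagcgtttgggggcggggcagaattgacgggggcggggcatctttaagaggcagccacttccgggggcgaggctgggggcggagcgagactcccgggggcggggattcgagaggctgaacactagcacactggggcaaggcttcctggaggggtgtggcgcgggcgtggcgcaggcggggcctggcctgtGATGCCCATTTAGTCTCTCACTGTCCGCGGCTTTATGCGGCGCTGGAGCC
It holds 27 CG dinucleotides in 300 bases. Neither window, nor any of the 6 windows that RefSeq gives for Csnk1e, Fbxl21 and Fbxw11, contained on either strand the E-box CACGTG bound by CLOCK and BMAL1, the D-box TTATGTAA or TTACGTAA, or the ROR element AGGTCA. Of all 32851 promoter windows of this length, 7.15% held the E-box, 1.06% a D-box and 16.3% the ROR element. The Csnk1e windows overlap their neighbours and lie between 79441769 and 79442393 on chromosome 15. The annotated minus-strand Csnk1e gene starts at 79455566, and no window covered that start.

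Fbxl21 was a rare transcript. KO libraries had 1.52, 1.98, 2.24 and 1.40 CPM at CT19, and 1.10, 0.592, 1.49 and 1.99 at CT22. They had 1.89, 1.08, 0.863 and 1.31 for CT1 and 1.57, 1.23, 0.855 and 0.934 at CT10. WT libraries had 1.73, 2.62, 2.16 and 1.94 CPM at CT19, and 1.26, 1.75, 0.917 and 1.47 at CT22. They had 1.40, 1.67, 1.35 and 2.15 for CT1 and 1.30, 1.86, 2.28 and 2.27 at CT10. KO and WT libraries overlapped at every time. Over the mean of times the log2 difference was -0.35 (95% interval -0.65 to -0.05, edgeR adjusted p = 0.107), and among the alternatives run it was called only without KO CT22 replicate 4 (adjusted p = 0.0421, range over all alternatives 0.0421 to 0.716). At CT10 it was -0.75 (95% interval -1.35 to -0.14, adjusted p = 0.109), with only 26 to 45 counts per KO library and 44 to 74 per WT library. At this depth the interval at CT10 spans folds of 0.392 to 0.905, and no difference between times was called in KO (adjusted p = 0.671) or WT (0.353).

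Btrc (ENSMUSG00000025217, GRCm38 chr19:45363734-45530013, plus strand) encodes beta-TrCP1. KO libraries read 103, 99.9, 116 and 121 CPM at CT19, and 90.9, 145, 96.3 and 145 at CT22. They read 152, 96.9, 96.0 and 103 for CT1 and 104, 147, 155 and 88.6 at CT10. WT libraries read 115, 139, 181 and 152 CPM at CT19, and 127, 137, 119 and 166 at CT22. They read 160.5, 180.4, 188 and 100.2 for CT1 and 142, 94.98, 143 and 142 at CT10. High and low libraries occurred in both genotypes, and the groups overlapped at every time. Over all times Btrc averaged 116 ± 24.3 CPM in KO and 143 ± 27.9 CPM in WT libraries (SD, n = 16 each). The log2 difference of -0.30 (95% interval -0.51 to -0.08) had an edgeR adjusted p of 0.0522 and was not called. It was called by DESeq2 (0.0276) and with the library set as a covariate (0.0443), and over all alternatives its adjusted p ranged between 0.0190 and 0.198. Leaving out 1 of 9 libraries also brought it under the threshold, with adjusted p between 0.0190 and 0.0494: WT CT19 replicate 1, WT CT22 replicate 3, WT CT1 replicate 5, WT CT10 replicate 2, KO CT22 replicates 2 and 4, KO CT1 replicate 1, and KO CT10 replicates 3 and 4. Across the 4 library sets the KO minus WT difference was -0.39, -0.68, 0.01 and -0.13. Time had no called effect on Btrc in KO (adjusted p = 0.970) or WT (0.751).

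Fbxw11 (ENSMUSG00000020271, GRCm38 chr11:32642724-32746816, plus strand) encodes beta-TrCP2, which shares its PER substrate with beta-TrCP1. It ranged between 68.2 and 84.1 CPM in KO libraries with a median of 80.7, against 69.7 to 85.9 CPM with a median of 77.5 in WT libraries. The groups overlapped at every time, and the log2 difference was 0.03 (95% interval -0.05 to 0.10, edgeR adjusted p = 0.675). The interval bounds the fold between 0.968 and 1.07. No time effect was called in KO (adjusted p = 0.880) or WT (0.801).

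The within-library log2 ratio of Btrc to Fbxw11 counts was 0.54 ± 0.325 in KO and 0.86 ± 0.312 in WT (SD, n = 16 each), a difference of -0.32. A two-sided permutation test with 100000 resamples gave p = 0.00844, or 0.0422 adjusted over the 10 ratio comparisons. As for the kinase ratio, the share of other gene pairs that would pass is not known. At single times the difference was -0.44, -0.27, -0.40 and -0.19 at CT19, CT22, CT1 and CT10, and the libraries of the genotypes overlapped each time (lowest exact permutation p = 0.0571, at CT19). The within-group SD of log2 CPM was 0.31 for Btrc and 0.09 for Fbxw11.

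The genes whose log2 CPM followed that of Btrc most closely over the 32 libraries lay near it on chromosome 19. Hif1an, an oxygen-dependent hydroxylase, had a Pearson r of 0.83, Pde6c, the cone phosphodiesterase catalytic subunit, 0.78, and Rrp12, a ribosome biogenesis factor, 0.71. Their starts lie before that of Btrc, at offsets of -0.80, -7.23 and -3.501 megabases. The correlation remained within the 8 groups, at 0.80, 0.72 and 0.73. The genes with the lowest r, chosen after their values were seen, were Neurl1a (-0.81), Scd2 (-0.79) and Morn4 (-0.73), on the same chromosome as well. Of the 20 genes with the largest absolute r, 13 lay on chromosome 19 and 12 within 10 megabases, while 3.47% of the 10680 candidate genes lie on that chromosome. The same count on its own chromosome was 3 of 20 for Csnk1d, 0 for Csnk1e, 0 for Fbxl21 and 0 for Fbxw11. In the same order, 8.31%, 3.90%, 3.56% and 8.31% of candidate genes lie on those chromosomes. For Fbxw11 these 20 genes had an absolute r of at least 0.853, beyond its highest positive r of 0.798. KO minus WT was -0.18 (SE 0.06) for Hif1an, -0.57 (SE 0.18) for Pde6c and -0.34 (SE 0.09) for Rrp12, and 0.32 (SE 0.09) for Neurl1a, 0.29 (SE 0.09) for Scd2 and 0.30 (SE 0.08) for Morn4. These values come from the same libraries that gave the correlations and are a description only. The cone marker Pde6c is among them, while Btrc followed the whole cone list with an r of 0.35.

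**Figure D4:**
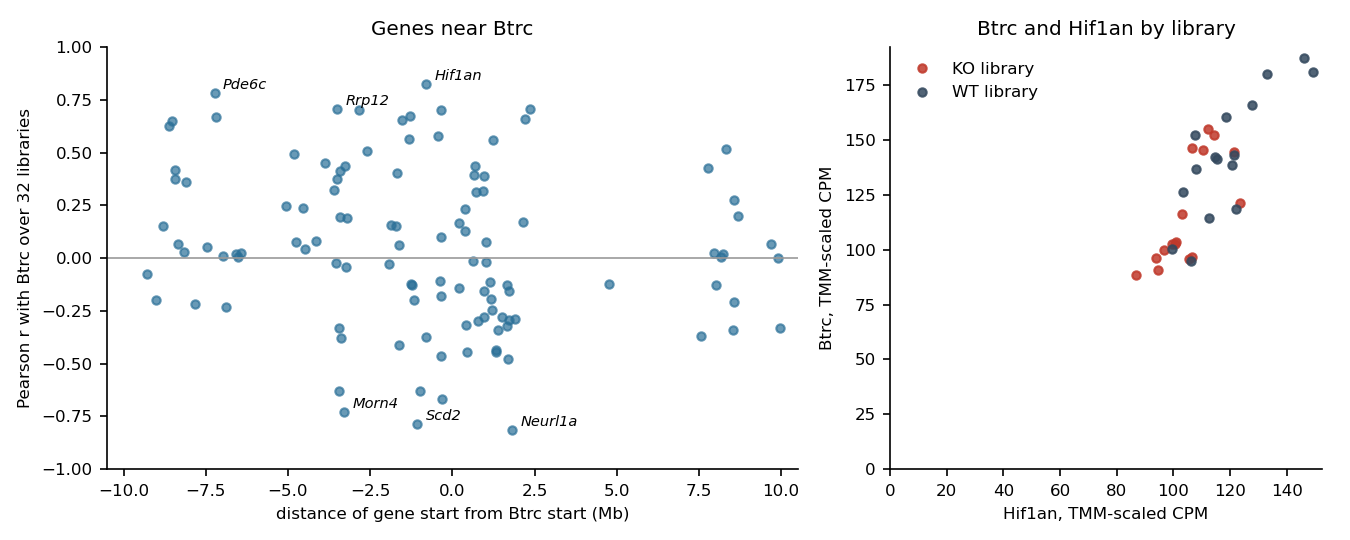
Left, Pearson r with Btrc over 32 libraries (y axis) of candidate genes within 10 megabases of Btrc, against the distance of their starts from that of Btrc (x axis). Right, Btrc against Hif1an in TMM-scaled CPM, 1 point per library, KO in red and WT in dark blue: the libraries of both genotypes lie along 1 rising band (r 0.83).

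Of the closest companions named here for the other genes, only Rpa1 lay on the chromosome of its gene. It starts 42.7 megabases from the start of Fbxw11 on chromosome 11. Csnk1d was followed by Gtpbp1 (r 0.78), Ddb1 (0.75) and Csk (0.73), and Csnk1e by Leng9 (0.81), Apbb1 (0.80) and Pbx2 (0.78). Fbxw11 was followed by Rpa1 (0.80), Ubl3 (0.79) and Asb7 (0.77). For the rare Fbxl21 the highest r were lower, at 0.62 for Dctn5, 0.61 for Mecr and 0.60 for Ldb3. Leng9 shares exon bases with the far deeper Leng8 on the opposite strand, and its values are less certain for that reason. Among the 5 genes themselves the highest r was 0.32, between Csnk1d and Csnk1e, and that of Btrc with Fbxw11 was -0.21.

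Of the 50 tested genes in 5 lists of other enzymes acting on clock proteins, 8 were called over the mean of times, which is 16% beside 16.3% of all tested genes. Of the 4 other casein kinase 1 genes, 0 were called over the mean of times. Of 16 other kinase genes, 3 were called: Cdk5r1, an activator of CDK5, rose by 0.24 in KO, Prkab1, an AMPK subunit, fell by 0.29, and Gsk3b fell by 0.14 (edgeR adjusted p = 0.00330, 0.00567 and 0.0272). Of 7 phosphatase genes, 1 was called: Ppp1cc, a catalytic subunit of protein phosphatase 1, fell to 74.1 ± 6.81 CPM in KO, against 92.9 ± 7.49 CPM in WT libraries (SD, n = 16 each, log2 difference -0.32, adjusted p = 1.72e-06). Of 8 genes of the SCF core and its NEDD8 conjugation, 1 was called, the scaffold Cul1, which fell by 0.09 (adjusted p = 0.0448).

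Of 15 tested ligases and deubiquitinases of clock proteins, 3 were called over the mean of times, 1 higher and 2 lower in KO, beside the same 16.3% of all tested genes. The deubiquitinase gene Usp2 stood at 319 ± 40.1 CPM in KO and 229.6 ± 26.1 CPM in WT libraries (SD, n = 16 each, log2 difference 0.47, edgeR adjusted p = 7.27e-09). By time it was called at CT19 (0.54), CT22 (0.60) and CT1 (0.57) and not at CT10 (0.17, edgeR adjusted p = 0.260). Its KO minus WT contrast of CT10 against night was -0.40 (edgeR adjusted p = 0.0401), a contrast called for 4.58% of tested genes. Ddb1, the adaptor of a CUL4 ligase, stood at 635 ± 38.5 CPM in KO and 764 ± 47.7 CPM in WT libraries (log2 difference -0.27, adjusted p = 1.62e-06). The medians of the 5 lists in their order here were -0.03, -0.03, -0.04, -0.04 and -0.03, beside 0.00 over all tested genes. For time within WT, Mapk3 and Prkaa2 were called among the kinases (adjusted p = 0.0275 and 0.0323) and Ube3a and Siah2 were called among the ligases (adjusted p = 0.0411 and 0.0451). Time within WT was called for 14.6% of all tested genes. None of the 50 listed genes was called for time in KO by edgeR, beside 0.0056% of all tested genes. Ddb1, Ube3a, Cul1, Usp2, Cry2 and Gtpbp1 share exon bases with a gene on the opposite strand, which had at most 6.19% of the counts of the named gene.

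The transcripts of the PER and CRY substrates were all called. Over the mean of times Per1 was 0.82 log2 units higher in KO, Per2 2.72, Per3 1.26, Cry1 0.46 and Cry2 1.20 (edgeR adjusted p = 1.17e-09, 2.58e-19, 3.79e-12, 2.62e-11 and 7.17e-20). In the same contrast the 95% intervals of the log2 difference were -0.15 to -0.02 for Csnk1d, -0.02 to 0.14 for Csnk1e, -0.65 to -0.05 for Fbxl21, -0.51 to -0.08 for Btrc and -0.05 to 0.10 for Fbxw11. Transcript levels do not measure the activity of the kinases or ligases.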

How the data were processed

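RNA from laser-captured photoreceptors was extracted (Qiagen RNeasy Micro) and made into KAPA mRNA HyperPrep libraries, per the labels' protocols. The values are raw read counts per Ensembl gene, as deposited by the authors in 1 table. The submitters' processing notes name Trimmomatic 0.32, HISAT2 2.1.0, HTSeq 0.11 and Cufflinks, and build GRCm38.p6. Whether counting used strand, which annotation release it used and how multi-mapped reads were handled is not given in the sources used. Csnk1d, Csnk1e and Btrc share 63, 267 and 235 exon bases with a gene on the opposite strand, which had 218, 25 and 44 counts in all 32 libraries together, and their values are less certain by that amount. No 50-base stretch is shared between the transcripts of Csnk1d and Csnk1e or of Btrc and Fbxw11.

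Gene names and positions came from GENCODE M21 (99.9% of identifiers named). RefSeq promoter windows, 250 bases before to 50 after a start, were given for Csnk1e, Fbxl21 and Fbxw11, and those of Csnk1d and Btrc were not used here. Counts were fitted in R 4.3.3 with edgeR 4.0.16: 17871 genes passed filterByExpr (count minimum 10, total minimum 15, 8 groups), libraries were scaled by TMM, and 1 robust quasi-likelihood fit with a mean per group (24 residual degrees of freedom) gave all contrasts. Intervals are 95%. For F tests the value is the range of the fitted log2 means over times, or of the KO minus WT differences. Ratios used counts plus 0.5. The procedure was tested on simulated counts.

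Alternatives were DESeq2 1.42.0, RLE scaling, no filter, the replicate number as a block, the library set, marker levels as covariates and leaving out each library. P-values treat libraries as separate animals as far as the numbers in the titles say. No pair of libraries of a group agreed within counting noise (48 pairs, chi-square over its degrees of freedom 11.0 to 96.0). The genes and lists were chosen with earlier results of these data known. Named were all 5 genes, the Per and Cry genes, up to 4 called genes per list and contrast by smallest p, and for each of the 5 the 3 genes with the highest r among tested genes with a mean log2 CPM of 1 or more and an established symbol. Results for 1 gene that this rule picked are not reported here.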

Additional observations from a re-analysis of the deposited data

Results flagged for a closer look

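In groups of 4 libraries, 4 values stood far from the other 3 of their group, among 56 groups examined, where chance flags about 1 in 20. Btrc read 152 CPM in KO CT1 replicate 1, above the 96.0 to 103 CPM of the other KO libraries at that time. Btrc read 94.98 CPM in WT CT10 replicate 2, below the 142 to 143 CPM of the other WT libraries there. Csnk1e read 49.5 CPM in WT CT19 replicate 4, where the others lay between 61.4 and 63.7 CPM. Fbxw11 read 68.2 CPM in KO CT22 replicate 4, where the others lay between 81.0 and 82.8 CPM.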

How the results depend on the processing

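Over the mean of times, where edgeR called 0 of the 5 genes, DESeq2 called 2, the replicate block 1 (Csnk1d, adjusted p = 0.0433), the library set covariate 1, and leaving out a library 0 to 2. Over all tested genes those fits called 3329, 3069, 2859 and 2456 to 3278, beside 2909 in edgeR. For KO against WT at CT10, DESeq2 called 1 (2237 genes in all), and leaving out a library gave 0 to 1 (946 to 2055 in all). With inner retina and lens covariates together, 0 were called for time within WT and 0 for CT10 against night in WT, and leaving out a library gave 0 to 1 for time within WT. The cause was not tested. Per kilobase of the longest transcript the levels were 33.6 CPM for Csnk1d, 18.1 for Csnk1e, 0.447 for Fbxl21, 27.5 for Btrc and 19.4 for Fbxw11, since lengths were shorter. No value that was called changed sign. Both ratios kept their direction and an unadjusted permutation p under 0.05 in the 66 alternatives run. Those alternatives were only a larger count added before the ratio and leaving out each library. The adjusted p of the ratios was not recomputed, and no fit with marker levels or the library set was run for them. Whether the replicate numbers pair the libraries was not settled. Over 77 pairs of the same number, r of deviations was -0.21 to 0.30 (median -0.011, 16 above 0.1). Over 371 pairs of other numbers it was -0.36 to 0.38 (median -0.002, 51 above 0.1). Apart from Csnk1d over the mean of times, the block changed no call among the 5.

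Counts over all tested genes moved more. With the inner retina covariate 817 genes were called over the mean of times (2909 without it), 458 at CT19 (928), 213 at CT10 (1825), 1324 for time within WT (2615), 151 for the interaction (289) and 2334 for CT10 against night in WT (4084). With the lens level added these were 673, 388, 69, 454, 5 and 678. DESeq2 called 1463 genes at CT19, 446 at CT22, 482 at CT1, 183 for time within KO, 897 for the interaction, 53 for CT10 against night in KO and 1338 for the KO minus WT contrast of CT10 against night, where edgeR called 928, 273, 282, 1, 289, 0 and 818. That last contrast called 498 genes with no filter, 459 with the inner retina covariate and 59 with both covariates. With no filter 546 genes were called at CT19, 5 for time within KO and 1 for CT10 against night in KO, which the block raised to 21 and the inner retina covariate to 5. Time within KO called 0 genes under the block, the library set and either covariate fit. Leaving out 1 library moved the counts to between 423 and 1164 at CT19, 170 and 295 at CT22, 946 and 2055 at CT10, 142 and 429 for the interaction, 1563 and 3144 for time within WT, 0 and 29 for time within KO, 0 and 21 for CT10 against night in KO and 456 and 929 for the KO minus WT contrast of it. Depth limits Fbxl21, at 17 to 74 counts per library.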

Other observations

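Fbxw11 followed some genes inversely more closely than any gene directly. Over the 32 libraries its log2 CPM had a Pearson r of -0.92 with Firre, a long noncoding RNA gene on the X chromosome, -0.90 with Tor1b, a torsin family ATPase, and -0.89 with Ccdc163, and -0.91, -0.90 and -0.90 within the 8 groups. These 3 genes were chosen after their values were seen, share libraries and depth with Fbxw11, and lie on 3 chromosomes other than its own. KO minus WT was -0.03 (SE 0.08) for Firre, -0.04 (SE 0.08) for Tor1b and -0.11 (SE 0.12) for Ccdc163. Fbxw11 followed the Müller glia list with an r of 0.51 and the microglia list with 0.48.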
